A study of Danio rerio with 48 samples.

Results

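The 10 genes described here are afp4, tfa, rbp4, ttr, fabp10a, a2ml, serpina1, fgb, fgg and mt2. They comprise secreted plasma proteins of the liver and yolk syncytial layer, the hepatocyte fatty acid-binding protein fabp10a and the metallothionein mt2. They were taken by name from the 31658 gene entries of a count table of whole zebrafish (Danio rerio) embryos. All 10 were present, and 9 had enough counts to be tested, the exception being ttr. Each library was made from 1 embryo of the RIKEN WT strain and belonged to Family232 of the line labelled agu79. Embryos were noc2l +/+ (wild types) or noc2l -/- (mutants), untreated as far as the labels say, and were taken at 3 ages given in hours post fertilisation (hpf). At 24 hpf there were 6 wild types with 9 mutants, at 36 hpf 8 with 9, and at 48 hpf 9 with 7. The product of noc2l resides in the nucleolus, and comparing genotypes at each age shows which transcript levels differ in mutants. All embryos came from 1 family, and the sources used here do not describe the lesion.

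In the zebrafish embryo the yolk syncytial layer, a multinucleate layer between yolk and body, packages yolk lipid into lipoproteins and secretes several plasma proteins before the liver is functional. Hepatocytes arise from the gut endoderm and later become the main source of plasma proteins, including iron and vitamin carriers, protease inhibitors and clotting factors. Metallothioneins are small cysteine-rich proteins that bind zinc and copper, and their genes are switched on by excess metal through the zinc-sensing transcription factor Mtf1. Libraries sampled mainly the 3' ends of transcripts, so levels are given as counts scaled to a library of 1000000 (CPM, with TMM factors). Tests compare embryos for 1 gene at a time, and comparisons of level across genes are descriptions.

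Of the 9 tested transcripts 3 were lower in mutants at 48 hpf, an age at which 2.2% of all tested genes were called and 0.712% were called lower. They were afp4, by 1.81-fold, mt2, by 3.64-fold, and a2ml, by 1.50-fold. The genes were chosen with earlier results of these data known, so the shares over all genes are no test of the set. At 24 and 36 hpf edgeR called 0 of the 9, against 0.122% and 0.706% of all tested genes. The carriers tfa and rbp4, the protease inhibitor serpina1, the fibrinogen chains fgb and fgg and the late hepatocyte marker fabp10a did not pass at any age. Differences are log2 values, mutant minus wild type, with their standard error (SE), and "called" means an adjusted p under 0.05 in edgeR's quasi-likelihood test over 16431 genes.

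Total counts ran from 797752 to 11016313 per library, and 3 libraries lay under 1/3 of the median of 5985646 (at 24 hpf the wild-type embryo 4 with the mutant embryo 8, at 48 hpf the wild-type embryo 9). The targeted transcript noc2l was lower in mutants, with log2 differences of -1.93, -1.52 and -1.72 at 24, 36 and 48 hpf, all called, although genotypes overlapped at each age. Mutant embryo 5 at 24 hpf, at 16.3 CPM, had the highest noc2l level of its group, and the next mutant held 6.31 CPM. Wild types of that age ran from 6.54 to 31.9 CPM. The level of mutant embryo 5 thus lay inside the wild-type range, and no other mutant of that age reached it. Why this embryo read higher was not tested. A developmental age score was computed from genes that rise or fall with age in wild types, leaving out the genes described here and those of the lists below. Its genes were picked on the same wild types, which favours extreme wild-type scores at 24 and 48 hpf. How far this choice set the genotypes apart at those ages was not tested. It ran from -3.07 to -2.28 in wild types and -2.67 to -1.91 in mutants at 24 hpf, and from -0.87 to 0.46 and -1.07 to 0.37 at 36 hpf. At 48 hpf the ranges did not overlap, at 2.41 to 3.15 in wild types and 1.37 to 2.38 in mutants.

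The label of liver plasma proteins was checked against the hepatocyte gene fabp10a and against regulators of the liver bud. At 24 hpf no embryo held more than 4 counts of fabp10a, whereas afp4, tfa and rbp4 already had group means of 293 CPM or more. Of 13 listed liver bud regulators, 12 held counts in wild types at 24 hpf and 13 at 48 hpf, and their summed level fell within 61.0 to 104 CPM in all groups. The 13 yolk syncytial layer markers in the table summed to between 7776 and 14076 CPM and included apolipoprotein genes. The genes are therefore named here by their products rather than as liver transcripts. The 8 intestinal markers summed to 961 to 1154 CPM in wild types and 726 to 1038 CPM in mutants at 48 hpf. Most of this sum came from fabp1b.1, with means of 872 and 789 CPM, and fabp2, with 152 and 101 CPM. The sum therefore mainly follows these genes and not the intestinal markers as a set. The 10 exocrine pancreas markers summed to 7.53 to 22.8 CPM in wild types and 9.81 to 31.1 CPM in mutants at 48 hpf. The intestinal peptide transporter slc15a1b was at 0 in both genotypes at that age. In whole embryos, fewer cells of a type and less RNA per cell cannot be told apart.

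**Figure D1:**
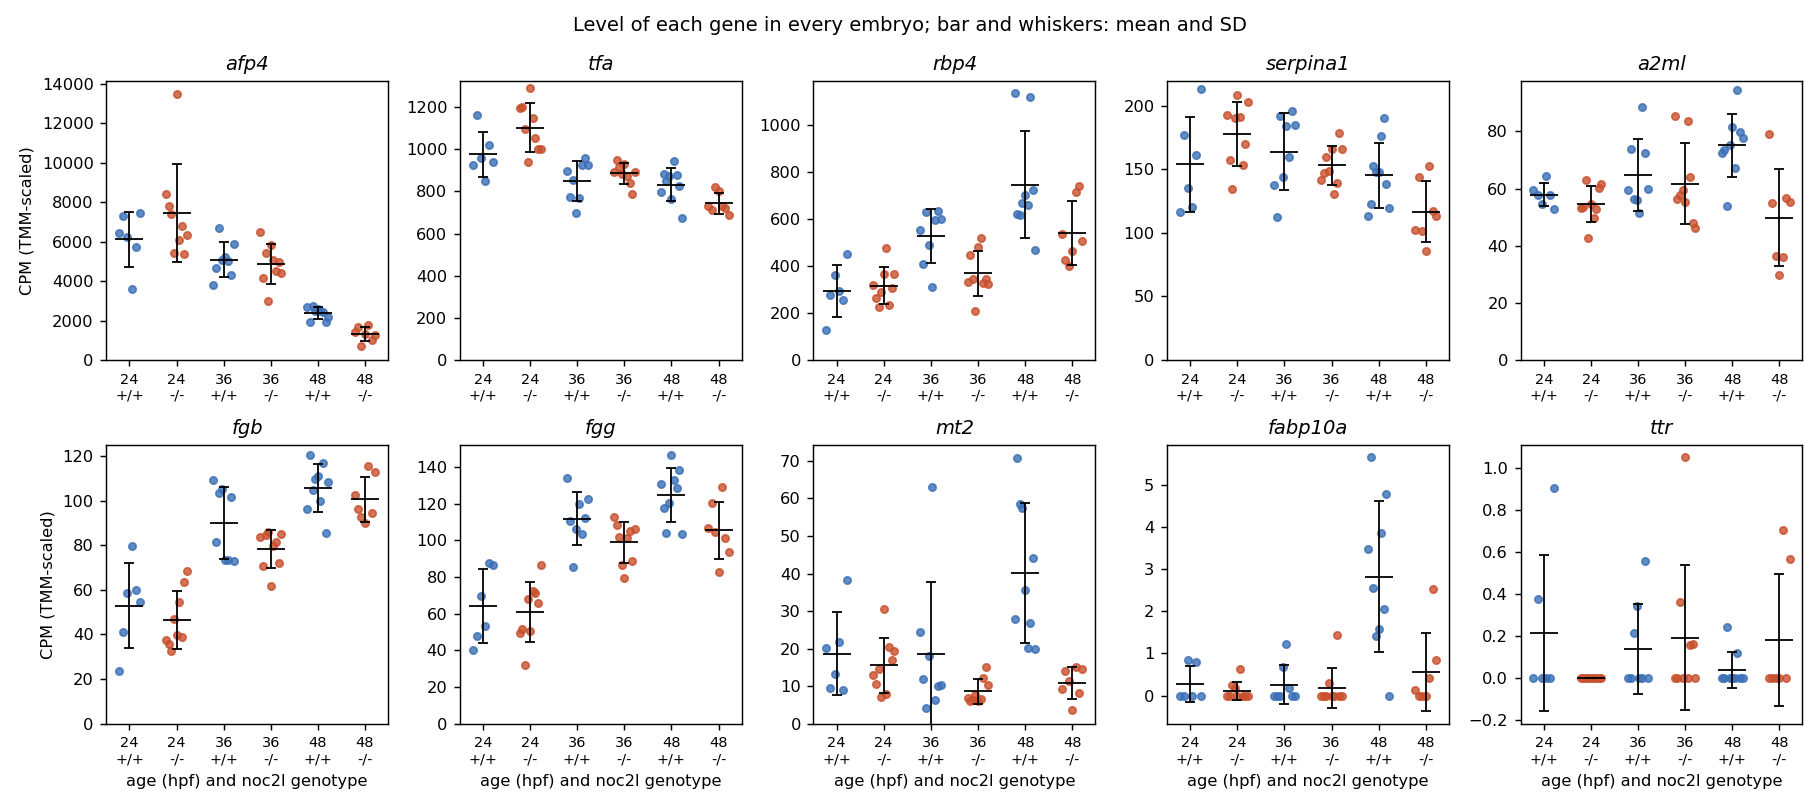
Level of each of the 10 genes (y axis, CPM with TMM scaling, linear) in every embryo, by age in hpf and noc2l genotype (x axis; blue +/+, red -/-). Each point is 1 embryo, and the bars show mean and SD over 6 to 9 embryos. At 48 hpf all 7 mutants lie below all 9 wild types for afp4 and mt2, and for no other gene shown.

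The carriers were led by afp4, which encodes the type IV antifreeze protein, a small secreted protein related to apolipoproteins. In wild types its lowest, median and highest levels were 3583, 6342 and 7427 CPM at 24 hpf. At 36 hpf they were 3805, 5047 and 6705 CPM, and at 48 hpf 1904, 2468 and 2746 CPM. All wild types at 48 hpf thus lay below all wild types at 36 hpf, as was the case for 1.91% of tested genes. In mutants the corresponding values were 5367, 6799 and 13498 CPM at 24 hpf, 3010, 4949 and 6498 CPM at 36 hpf, then 728, 1309 and 1788 CPM at 48 hpf. All 7 mutants at 48 hpf read lower than all 9 wild types of that age, which held for 0.323% of tested genes, and the genotypes overlapped widely at 24 and 36 hpf.

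At 48 hpf the mean of afp4 was 1316 ± 363 CPM in mutants (SD, n = 7) and 2380 ± 314 CPM in wild types (SD, n = 9). The log2 difference was -0.86 (SE 0.17, edgeR adjusted p = 0.00156). It was 0.29 (SE 0.18, edgeR adjusted p = 0.733) at 24 hpf and -0.06 (SE 0.16, edgeR adjusted p = 0.987) at 36 hpf. The genotype difference itself moved by -1.14 (SE 0.25) between 24 and 48 hpf, with an edgeR adjusted p of 0.0505, just outside the threshold. The same contrast was called by DESeq2 (-1.14, adjusted p = 0.00538), and without mutant embryo 5 at 24 hpf edgeR gave -0.97 (adjusted p = 0.0771). Between 36 and 48 hpf the difference moved by -0.79 (SE 0.24, edgeR adjusted p = 0.584).

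The fall of afp4 from 36 to 48 hpf was -1.09 (SE 0.16, edgeR adjusted p = 2.05e-06) in wild types and -1.89 (SE 0.18, edgeR adjusted p = 1.12e-10) in mutants. Mutants of these ages did not overlap either, as for 1.61% of tested genes. From 24 to 36 hpf it fell by 0.61 in mutants (SE 0.16, edgeR adjusted p = 0.00615), and read -0.27 in wild types (SE 0.18, edgeR adjusted p = 0.437). Mutants at 48 hpf also lay below all wild types at 36 hpf, with a log2 difference of -1.95 (SE 0.18, edgeR adjusted p = 8.8e-11), a separation found downward for 2.15% of tested genes. Levels of afp4 in mutants at 48 hpf were below those of wild types at 36 and at 48 hpf. The age score of these mutants lay between the scores of the same wild types, on which the score's genes were picked. With the age score as a covariate the difference at 48 hpf read -1.32 (edgeR adjusted p = 1.74e-05). As the scores of the genotypes did not overlap at that age, this fit cannot tell genotype and developmental age apart. The cause of the lower level was not tested. The symbol afp4 stands for 2 Ensembl gene entries in the gene name table used, and the sources used here do not say whether the row sums both.

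**Figure D2:**
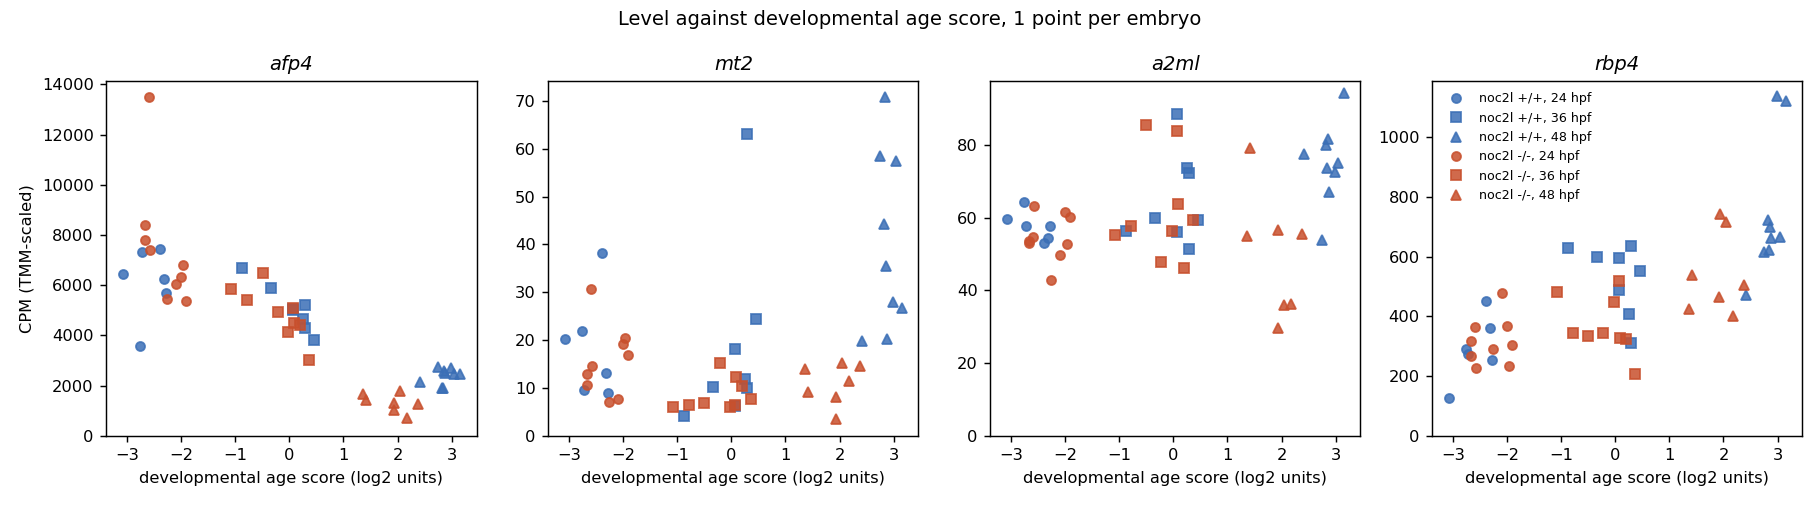
Level of afp4, mt2, a2ml and rbp4 (y axes, CPM with TMM scaling) against the developmental age score of each embryo (x axis, log2 units), 1 point per embryo (blue noc2l +/+, red noc2l -/-; circles 24, squares 36 and triangles 48 hpf). Mutants at 48 hpf score from 1.37 to 2.38, and their afp4 levels of 728 to 1788 CPM lie under the lowest wild-type level of 1904 CPM.

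The transcript of tfa, transferrin, the iron carrier of plasma, was abundant and even among embryos. Its lowest, median and highest levels were 850, 950 and 1162 CPM in wild types at 24 hpf, 696, 876 and 958 CPM at 36 hpf, then 673, 850 and 943 CPM at 48 hpf. In mutants they were 942, 1095 and 1293 CPM, 786, 892 and 950 CPM, and 687, 729 and 819 CPM. Mutants leaned above wild types at 24 hpf and below at 48 hpf, with overlap at each age. From the youngest to the oldest age the genotypes differed by 0.17, 0.06 and -0.16 (SE 0.08 each), at edgeR adjusted p of 0.602, 0.971 and 0.423. Within mutants tfa fell by 0.32 from 24 to 36 hpf (SE 0.07, edgeR adjusted p = 0.0017) and by 0.25 from 36 to 48 hpf (SE 0.08, edgeR adjusted p = 0.0287). The later of these calls was lost under 4 alternatives, one of them without mutant embryo 6 at 48 hpf, with edgeR adjusted p from 0.0597 to 0.15. Wild types read -0.20 and -0.03 over the same intervals and did not pass, although with library totals as the scale the earlier change was called in them as well (-0.33, edgeR adjusted p = 0.00222).

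Plasma retinol, the alcohol form of vitamin A, is carried by the protein of rbp4, which in mammals travels bound to transthyretin, the product of ttr. Group medians of rbp4 were higher at each later age. In wild types the lowest, median and highest were 127, 283 and 452 CPM at 24 hpf, 312, 574 and 635 CPM at 36 hpf, then 471, 667 and 1138 CPM at 48 hpf. Mutants ran from 227 to 477 CPM (median 305), from 209 to 520 CPM (median 343) and from 400.2 to 742 CPM (median 506). At 36 hpf all 9 mutants were below the wild-type median, and 5 of 8 wild types were above the highest mutant. The difference was -0.51 (SE 0.19, edgeR adjusted p = 0.396) at 36 hpf and -0.46 (SE 0.20, edgeR adjusted p = 0.346) at 48 hpf, after 0.11 (SE 0.21) at 24 hpf, and none passed. From 24 to 36 hpf rbp4 rose by 0.84 in wild types (SE 0.22, edgeR adjusted p = 0.00971) and read 0.23 in mutants (SE 0.19, edgeR adjusted p = 0.546). From 36 to 48 hpf rbp4 read 0.50 in wild types (SE 0.20, edgeR adjusted p = 0.0821) and 0.55 in mutants (SE 0.20, edgeR adjusted p = 0.0749), both of which were called with library totals (edgeR adjusted p = 0.03 and 0.0303) and with DESeq2 (adjusted p = 0.0372 and 0.0356). That the earlier rise differed between genotypes was not shown, at -0.62 (SE 0.29, edgeR adjusted p = 0.862). Mutants at 48 hpf read 0.04 above wild types at 36 hpf (SE 0.21, edgeR adjusted p = 0.951).

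Transthyretin carries thyroid hormone as well as the retinol complex. Its transcript was at the limit of detection, and no test was run. Embryos of a group held between 0 and 10 counts of ttr in all. The 9 mutants at 24 hpf held 0 counts, which allows up to 0.0598 CPM over the group, counting error only. Wild types at that age held 6 counts in 2 of 6 embryos. The highest single value was 1.05 CPM, from 6 counts in mutant embryo 5 at 36 hpf. A difference between genotypes was not detectable at this depth.

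The liver-type fatty acid-binding protein gene fabp10a is a standard hepatocyte marker in zebrafish. Counts of 0 were found in 4 of 6 wild types and 6 of 9 mutants at 24 hpf, and in 5 of 8 and 7 of 9 at 36 hpf. At 48 hpf 8 of 9 wild types and 4 of 7 mutants held counts. The lowest, median and highest levels were then 0, 2.55 and 5.64 CPM in wild types and 0, 0.139 and 2.54 CPM in mutants. The wild type at 0 was the shallow embryo 9. All 7 mutants lay below the wild-type median, and mutant embryo 6 stood above the other mutants.

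From 36 to 48 hpf fabp10a read 3.31 in wild types (SE 0.89, edgeR adjusted p = 0.00511). Mutants read 1.59 (SE 0.91, edgeR adjusted p = 0.321), or 0.39 without mutant embryo 6 at 48 hpf (edgeR adjusted p = 0.892). That these changes differed between genotypes was not shown, at -1.72 (SE 1.37, not called). At 48 hpf the genotype difference was -2.17 (SE 0.84), with an edgeR adjusted p of 0.23. Without mutant embryo 6 it was -3.35 (edgeR adjusted p = 0.0486), and with the embryo number as a block -3.26 (edgeR adjusted p = 0.0469). With the age score as a covariate the sign turned, at 0.56 (edgeR adjusted p = 0.849), though scores of the genotypes did not overlap at that age. The gene passed the filter on low counts only through wild types at 48 hpf. Its place among the 9 tested genes and its calls that involve that group therefore support nothing.

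Alpha-2-macroglobulin-like protein, encoded by a2ml, is a broad trap for proteases. Wild types had lowest, median and highest levels of 52.9, 57.8 and 64.3 CPM at 24 hpf, 51.5, 59.7 and 88.7 CPM at 36 hpf, then 53.8, 75.1 and 94.4 CPM at 48 hpf. Mutants had 42.8, 53.6 and 63.1 CPM, 46.1, 57.8 and 85.4 CPM, and 29.7, 54.9 and 79.1 CPM. At 48 hpf 6 of 7 mutants were below the wild-type median, and 3 of them, embryos 3, 4 and 5, were below the lowest wild type. Mutant embryo 1, the highest, sat inside the wild-type range.

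The means of a2ml at 48 hpf were 49.8 ± 17.02 CPM in mutants (SD, n = 7) and 75.1 ± 11.01 CPM in wild types (SD, n = 9), a log2 difference of -0.58 (SE 0.14, edgeR adjusted p = 0.00518). At 24 hpf the difference was -0.08 (SE 0.15) and at 36 hpf -0.07 (SE 0.13). Neither genotype changed past the threshold between neighbouring ages: wild types read 0.17 and 0.21, mutants 0.18 and -0.30. The shift of the genotype difference between 36 and 48 hpf was -0.52 (SE 0.19, edgeR adjusted p = 0.983).

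The gene serpina1 encodes alpha-1-antitrypsin, an inhibitor of neutrophil elastase. Its lowest, median and highest levels in wild types were 117, 148 and 213 CPM at 24 hpf, 113, 172 and 196 CPM at 36 hpf, then 113, 148 and 190 CPM at 48 hpf. Mutants ran from 135 to 208 CPM, 130 to 178 CPM and 86.0 to 152 CPM, with medians of 190, 148 and 113 CPM. At 48 hpf 4 of 7 mutants were below the lowest wild type. The genotypes differed by 0.20 (SE 0.12) at 24 hpf, by -0.10 (SE 0.11) at 36 hpf and by -0.32 (SE 0.12) at 48 hpf. The edgeR adjusted p-values were 0.733, 0.953 and 0.19. In mutants serpina1 fell by 0.39 from 36 to 48 hpf (SE 0.12, edgeR adjusted p = 0.0208), a call lost with library totals alone as the scale (-0.31, edgeR adjusted p = 0.0663). Mutants at 48 hpf were lower than wild types at 36 hpf by a log2 value of -0.49 (SE 0.12, edgeR adjusted p = 0.00296). The paralog serpina1l read -0.15 at 48 hpf (SE 0.13, edgeR adjusted p = 0.781), and reads common to both genes could be divided between them by the counting.

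Fibrinogen, the precursor of the fibrin clot, is built of alpha, beta and gamma chains, encoded by fga, fgb and fgg. Both listed chains rose from 24 to 36 hpf in both genotypes. The change of fgb was 0.80 (SE 0.15, edgeR adjusted p = 0.000101) in wild types and 0.75 (SE 0.13, edgeR adjusted p = 7.39e-06) in mutants. For fgg it was 0.78 (SE 0.14, edgeR adjusted p = 6.73e-05) and 0.70 (SE 0.12, edgeR adjusted p = 1.75e-05). From 36 to 48 hpf neither passed in either genotype, though all 7 mutants at 48 hpf read higher in fgb than all 9 mutants at 36 hpf (0.36, SE 0.13, edgeR adjusted p = 0.0666; 1.4% of tested genes separated upward). This change of fgb in mutants was called under 4 alternatives, namely library totals, DESeq2, DESeq2 size factors in edgeR and leaving out the 3 shallow libraries, with adjusted p from 0.0341 to 0.0463.

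The lowest, median and highest levels of fgb in wild types were 23.5, 56.7 and 79.6 CPM at 24 hpf, 73.1, 91.4 and 109 CPM at 36 hpf, then 85.3, 108 and 120.3 CPM at 48 hpf. Mutants had 32.8, 39.5 and 68.4 CPM, 61.5, 81.5 and 85.9 CPM, and 89.8, 96.2 and 116 CPM. Genotypes overlapped at every age, with differences of -0.16 (SE 0.15), -0.20 (SE 0.13) and -0.07 (SE 0.13). For fgg, wild-type medians were 61.6, 112 and 128 CPM and mutant medians 65.7, 102 and 105 CPM, with differences of -0.09 (SE 0.14), -0.18 (SE 0.12) and -0.24 (SE 0.13). The edgeR adjusted p of the 2 chains was 0.498 or more at each age. The alpha chain gene fga read -0.21 (SE 0.19), -0.05 (SE 0.17) and -0.26 (SE 0.17), none called.

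The metallothionein mt2 was the gene that stood lowest in mutants at 48 hpf relative to wild types among those called. Wild types had lowest, median and highest levels of 8.86, 16.6 and 38.2 CPM at 24 hpf, 4.05, 11.1 and 63.1 CPM at 36 hpf, then 19.8, 35.6 and 70.8 CPM at 48 hpf. In mutants they were 7.07, 14.6 and 30.7 CPM at 24 hpf, 5.96, 6.92 and 15.2 CPM at 36 hpf, then 3.49, 11.5 and 15.1 CPM at 48 hpf. All 9 wild types at 48 hpf were above all 7 mutants of that age. Single embryos varied widely, and wild-type embryo 5 at 36 hpf was far above its group.

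At 48 hpf mt2 had a mean of 10.8 ± 4.21 CPM in mutants (SD, n = 7) and 40.1 ± 18.6 CPM in wild types (SD, n = 9). The log2 difference was -1.86 (SE 0.41, edgeR adjusted p = 0.00427). At 36 hpf it was -1.12 (SE 0.39, edgeR adjusted p = 0.299) and at 24 hpf -0.27 (SE 0.43, edgeR adjusted p = 0.929). With the age score as a covariate the call at 48 hpf was lost, at -1.24 (edgeR adjusted p = 0.23). Scores of the genotypes did not overlap at that age, so the covariate fit cannot tell genotype and developmental age apart. The cause of the lower level was not tested. From 36 to 48 hpf mt2 rose by 1.11 in wild types (SE 0.37, edgeR adjusted p = 0.0376) and read 0.37 in mutants (SE 0.41, edgeR adjusted p = 0.685). The difference of these changes did not pass (-0.74, SE 0.55, edgeR adjusted p = 1.00; -1.33 without wild-type embryo 5 at 36 hpf, edgeR adjusted p = 0.999). The call of the wild-type rise was lost with no low-count filter (1.12, edgeR adjusted p = 0.0517). Mutants at 48 hpf against wild types at 36 hpf read -0.75 (SE 0.41, edgeR adjusted p = 0.272). Without wild-type embryo 5 at 36 hpf the difference at that age was -0.52 (edgeR adjusted p = 0.892), the wild-type rise from 36 to 48 hpf was 1.70 (edgeR adjusted p = 0.000336), and mutants at 48 hpf against wild types at 36 hpf read -0.15 (edgeR adjusted p = 0.879).

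Another metallothionein entry in the table, mtbl, was named after its values were seen. It had means of 43.7 ± 13.1 CPM in mutants (SD, n = 7) and 37.9 ± 8.06 CPM in wild types (SD, n = 9) at 48 hpf, a difference of 0.20 (SE 0.22, edgeR adjusted p = 0.848). Its change from 24 to 36 hpf was 0.99 in wild types (SE 0.26, edgeR adjusted p = 0.00791). The gene for Mtf1, mtf1, read -0.36 at 48 hpf (SE 0.25, edgeR adjusted p = 0.661), and the zinc exporter gene slc30a1a 0.14 (SE 0.22, edgeR adjusted p = 0.899). Both were likewise named after their values were seen.

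**Figure D3:**
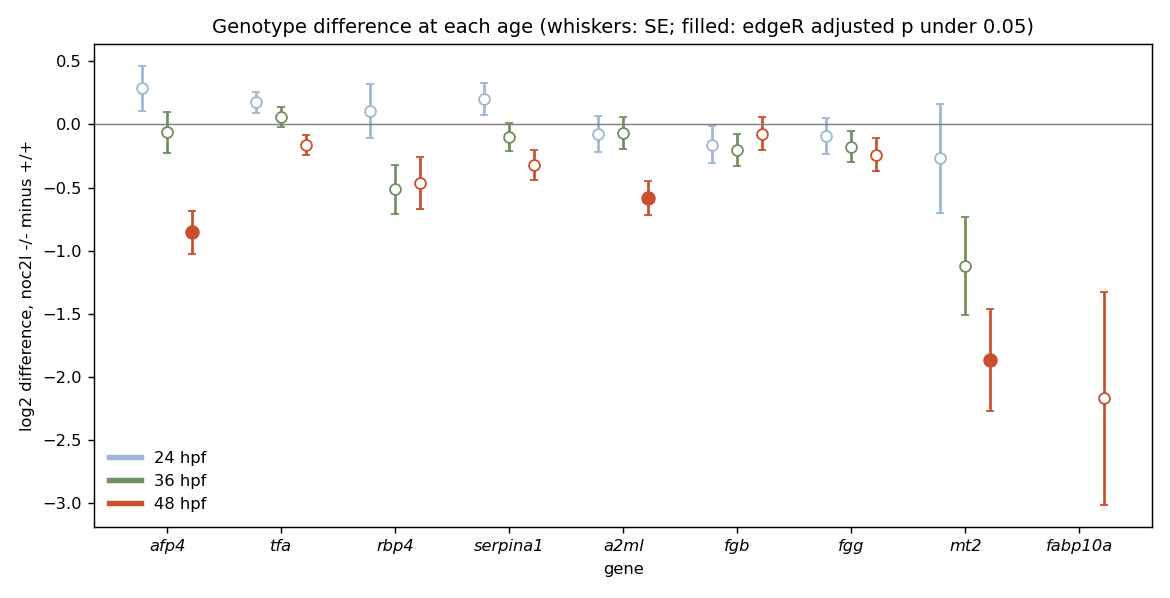
Log2 difference between noc2l -/- and noc2l +/+ embryos (y axis) for each tested gene (x axis) at 24, 36 and 48 hpf (colours), with SE as whiskers and filled points for an edgeR adjusted p under 0.05; fabp10a is drawn at 48 hpf alone because its earlier counts are near 0. The filled points are afp4 (-0.86), a2ml (-0.58) and mt2 (-1.86) at 48 hpf.

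The median difference at 48 hpf was -0.39 over 8 genes, leaving out fabp10a for its passage through the filter, against -0.02 over all tested genes. At that age 6 of the 8 had an unadjusted p under 0.05, against 11.3% of all genes, and DESeq2 called 3 of 9. Members were chosen with earlier results of these data known, so these comparisons with all genes are descriptions and not tests. At 24 hpf, where edgeR called 0 of 9, 1 of 9 (tfa) had an unadjusted p under 0.05, as had 7.97% of all genes, DESeq2 called 0, and the median of the 8 was 0.02, as over all tested genes. At 36 hpf, likewise with 0 called, 2 of 9 (mt2 and rbp4) had an unadjusted p under 0.05, as had 7.59% of all genes, DESeq2 called 0, and the median of the 8 was -0.14 against -0.01. Groups did not overlap at 48 hpf for 2 of 9, afp4 and mt2, both lower, against 0.323% of all tested genes. Together the 10 genes held 0.254% to 0.371% of a library's counts in mutants at 48 hpf. In wild types they held 0.400% to 0.518%, with no overlap. The most abundant of them in either genotype, afp4, had means of 1316 CPM in mutants and 2380 CPM in wild types. Its groups did not overlap by themselves. The share without afp4 was not computed, so the joint share cannot show whether a drop was common to the 10 genes. Gene by gene, each of the 8 read negative at 48 hpf, from -0.07 (fgb) to -1.86 (mt2), as did fabp10a. Only afp4, mt2 and a2ml were called.

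With age, 3 of 9 were called in wild types from 24 to 36 hpf (rbp4, fgb and fgg, all higher, background 8.47%, and 4.95% higher) and 2 of 8 from 36 to 48 hpf (afp4 and mt2, background 14.5%). The call of fabp10a in the latter is not counted, since its high group is the one that let it through the filter. In mutants 4 of 9 were called from 24 to 36 hpf (afp4, tfa, fgb and fgg, background 11.1%). From 36 to 48 hpf 3 of 9 were called in mutants (afp4, tfa and serpina1, all lower, background 10%, and 5.26% lower), and DESeq2 called 5. Mutants at 48 hpf differed from wild types at 36 hpf in 2 of 9 (afp4 and serpina1, both lower, background 11.9%, and 6.11% lower). These comparisons share groups with the genotype comparisons and are not independent of them.

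The test of whether the genotype difference moved with age called none of the 9. Between 24 and 36 hpf edgeR called 0% of all genes, 1 of the 9 had an unadjusted p under 0.05 against 5.74% of all genes, and DESeq2 called 0 of 9. Between 36 and 48 hpf the background was 0.0548%, 3 of the 9 had an unadjusted p under 0.05 against 4% of all genes, and DESeq2 called 0. Between 24 and 48 hpf the background was 0.0609%, 5 of the 9 had an unadjusted p under 0.05 against 7.21% of all genes, and DESeq2 called 1, afp4.

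Other genes of the same functions were read from lists of which the 10 genes are in part members. The lists also share genes with one another, so their counts are not separate. At 48 hpf 2.2% of all tested genes were called, and 11.3% had an unadjusted p under 0.05. DESeq2 called 471 of all tested genes at that age. Among 23 tested coagulation and fibrinolysis genes edgeR called 0 at 48 hpf, with a median of -0.14; 3 had an unadjusted p under 0.05, and DESeq2 called 0. Of 20 plasma protease inhibitors 1 was lower, a2ml itself (median -0.17). In that list 6 had an unadjusted p under 0.05, in either direction, and DESeq2 called 2. Of 27 complement genes edgeR called 0, with a median of -0.12; 4 had an unadjusted p under 0.05, and DESeq2 called 0. Retinoid and thyroid hormone genes had 0 called of 34 by edgeR and 0 by DESeq2, with 7 at an unadjusted p under 0.05 and a median of -0.07. At 24 and 36 hpf edgeR called 0 genes in each of the 9 lists, with 0 to 7 genes of a list at an unadjusted p under 0.05. Over all genes the shares at that limit were 7.97% and 7.59%. DESeq2 called 1 gene there, in the metal handling list at 36 hpf.

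Of 24 tested plasma carriers 12 had an unadjusted p under 0.05 at 48 hpf, in either direction, against 11.3% of all tested genes. DESeq2 called 5 of them. With edgeR 3 of the 24 were called lower, an age at which 0.712% of all tested genes were called lower. They were afp4, apom, encoding the lipocalin apolipoprotein M, at -1.51 (SE 0.24, edgeR adjusted p = 4.75e-05), and rbp4l, a retinol-binding protein-like gene, at -0.92 (SE 0.23, edgeR adjusted p = 0.018). The mean of apom was 44.9 ± 17.9 CPM in mutants (SD, n = 7) and 128 ± 21.8 CPM in wild types (SD, n = 9). Like afp4, rbp4l fell from 36 to 48 hpf, by 1.45 in wild types (SE 0.21) and by 2.11 in mutants (SE 0.24), both called. Of 34 hepatic enzymes and transporters 1 was lower, gnmt, glycine N-methyltransferase (-0.49, SE 0.14, edgeR adjusted p = 0.044). That is 2.94% of this list, near the 2.2% of all tested genes called at that age.

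Regulators of hepatocytes and the liver bud, 19 of them tested, had a median of 0.00 at 48 hpf against -0.02 over all genes. None was called lower and 2 were called higher, at an age when 1.49% of all tested genes were called higher. The transcription factor gene cebpb was higher in mutants (0.84, SE 0.18, edgeR adjusted p = 0.00249), with means of 31.5 ± 10.3 CPM in mutants (SD, n = 7) and 17.3 ± 4.43 CPM in wild types (SD, n = 9). The summed level of the 13 liver bud regulators ran from 69.2 to 87.1 CPM in mutants and 61.0 to 80.3 CPM in wild types at 48 hpf.

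Metal handling genes went both ways at 48 hpf, with 1 higher and 2 lower of 45 tested and a median of -0.01. Of all tested genes 2.2% were called at that age. Beside mt2, the ferritin heavy chain gene fth1a was lower (-0.33, SE 0.09, edgeR adjusted p = 0.0236), and slc11a2, a transporter that carries iron into cells, was higher (0.70, SE 0.17, edgeR adjusted p = 0.0111). In wild types slc11a2 fell by 1.04 from 36 to 48 hpf (SE 0.17, edgeR adjusted p = 2.43e-06), and mutants read -0.37 (SE 0.17, edgeR adjusted p = 0.177). The means of fth1a were 502 ± 41.4 CPM in mutants (SD, n = 7) and 629 ± 77.8 CPM in wild types (SD, n = 9). The iron carrier tfa read -0.16 at 48 hpf (SE 0.08, edgeR adjusted p = 0.423). Whether the differences of fth1a and tfa were unlike was not tested.

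Yolk syncytial layer genes had 8 of 29 tested members lower and none higher, with a median of -0.27, where 2.2% of all tested genes were called and 0.712% were called lower. In this list 15 genes had an unadjusted p under 0.05, against 11.3% of all tested genes. DESeq2 called 10 of the list and 471 of all tested genes. The 3 of smallest p were the apolipoprotein genes apoa4a (-2.05, SE 0.29), apom and apoa4b.2 (-1.23, SE 0.24). Their edgeR adjusted p-values were 6.02e-06, 4.75e-05 and 0.000862. The 13 markers of this layer summed to 9846 to 12134 CPM in mutants and 11453 to 13702 CPM in wild types at 48 hpf. Medians of the sum were 10921.1 CPM in mutants and 13350.5 CPM in wild types, so the median mutant lay below the lowest wild type. Most of the sum came from apoa2, with means of 4776 and 5306 CPM, and apoc1, with 3480 and 4214 CPM. It therefore mainly follows these genes and not the markers as a set. The sums overlapped between genotypes, and their part in the lower levels of afp4, mt2 and a2ml was not tested.

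**Figure D4:**
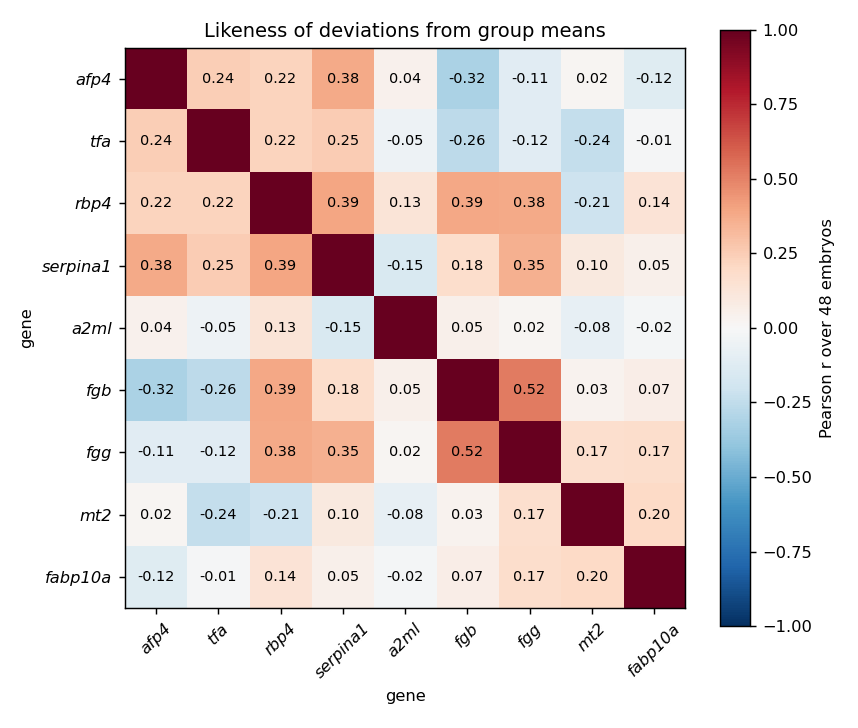
Pearson r between pairs of the 9 tested genes (both axes), from log2 CPM after subtraction of each group's mean, over 48 embryos; the colour scale runs from -1 to 1. The fibrinogen chains fgb and fgg have the highest value, 0.52, while the pairs that include mt2 or a2ml range from -0.24 to 0.20.

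Among embryos of 1 group the levels of the 9 tested genes were mostly weakly correlated. Over 36 pairs of tested genes the median Pearson r of the deviations from group means was 0.06, and it was positive in 24 pairs. The pair fgb and fgg stood highest (Pearson 0.52, Spearman 0.41, n = 48 embryos), and afp4 and fgb lowest (-0.32 and -0.30). These values are descriptions, since libraries share depth and scaling.

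The genes closest to each member by this measure were ranked over all tested genes with a symbol. Nearest to afp4 were the ribosomal protein genes rpl39 (Pearson 0.78, Spearman 0.71), rpl10a (0.78 and 0.75) and rps24 (0.77 and 0.75). For fgb they were fga (0.80 and 0.71), phb2b (0.75 and 0.64) and slirp (0.75 and 0.58), and for fgg they were prdx3 (0.78 and 0.64), hmgb1b (0.78 and 0.67) and psma8 (0.76 and 0.67). The fibrinogen beta chain thus had the alpha chain as its nearest gene, chosen by rank from all tested genes.

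For tfa the nearest were gamt (0.67 and 0.55), rrnad1 (0.60 and 0.47) and cyt1l (0.59 and 0.58), and for rbp4 skp1 (0.65 and 0.60), hspe1 (0.64 and 0.57) and ptrh2 (0.62 and 0.51). Nearest to serpina1 were ctr9 (0.58 and 0.53), rpl19 (0.56 and 0.60) and tppp (0.56 and 0.57). The genes mcamb (0.55 and 0.56), ppid (0.55 and 0.45) and gp1bb (0.51 and 0.37) came nearest to a2ml. For mt2 they were the microRNA entry dre-mir-181b-3 (0.54 and 0.55, mean 1.05 CPM), slc32a1 (0.52 and 0.50) and mcama (0.51 and 0.51). The values for mt2 and a2ml were the weakest of the 8 genes ranked.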

How the data were processed

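Single-embryo 3' mRNA libraries were made by Lasy-Seq, per the labels' protocols. The authors deposited expected counts per gene symbol, not normalised; Salmon, BWA 0.7.17-r1188 and fastp 0.21.0 are named in the submitters' processing notes, with the build GRCz11. Annotation and strand setting are not given in the sources used here. Reads of an overlapping or antisense gene can therefore not be separated. Expected counts were rounded (2 values were not whole). No row lacked a gene name. Libraries of 1 group differed by more than counting error (chi-square per degree of freedom of 5.26 or more).

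Genes were filtered with filterByExpr (minimum count 10), which left 16431 genes with 99.8% of counts, and fitted with TMM factors and robust quasi-likelihood tests in edgeR 4.0.16 (R 4.3.3), 1 mean per group over 48 libraries. P-values were adjusted by Benjamini-Hochberg over all tested genes; DESeq2 1.42.0 was an alternative. The SE was derived from the F statistic. Totals of 797752 to 11016313 counts and a common biological coefficient of variation of 31.1% set the precision. The procedure was run on counts simulated with the spread fitted to these data, with changes of 1 or 2 log2 units in mutants at 48 hpf alone. That run does not cover smaller changes, the other comparisons or a spread unlike the fitted one. Likeness used log2 CPM (prior count 2). The age score is the mean log2 CPM of the 200 genes with the strongest rise between 24 and 48 hpf in wild types, minus that of the 200 with the strongest fall.

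Named genes are the 10 members, noc2l, up to 3 called genes of smallest p per list and genotype comparison, and the 3 nearest genes of each member with at least 10 CPM. Outside this rule, serpina1l, slc15a1b, mtbl, mtf1 and slc30a1a were named after their values were seen, and one gene within it is not reported here. Members, lists and tests were chosen with earlier results of these data known. The labels do not say whether the replicate numbers pair embryos. The correlation of deviations between same-numbered embryos of the 2 genotypes ran from -0.05 to 0.07 over 21 pairs. Differently numbered embryos were not compared, so these values do not settle the pairing.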

Additional observations from a re-analysis of the deposited data

Results flagged for a closer look

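In 59 combinations of a gene and a group, 7 single values stood apart from their group. Chance gives about 1 in 20 for independent samples of normal spread, but the same embryos recur here under each gene. Mutant embryo 5 at 24 hpf held 13498 CPM of afp4, the next mutant 8394 CPM. This embryo also had the highest noc2l level of its group. Wild-type embryo 5 at 36 hpf held 63.1 CPM of mt2 from 358 counts, the next wild type 24.5 CPM. For fabp10a, mutant embryo 6 held 0.634 CPM at 24 hpf from 4 counts, mutant embryo 7 held 1.43 CPM at 36 hpf from 9 counts, and mutant embryo 6 held 2.54 CPM at 48 hpf from 24 counts. For ttr, mutant embryo 5 held 1.05 CPM at 36 hpf from 6 counts and wild-type embryo 3 held 0.243 CPM at 48 hpf from 2 counts. The fabp10a and ttr groups hold mostly zeros, so that a few counts suffice to stand apart.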

How the results depend on the processing

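Across 11 alternatives, 826 of 869 alternative values of the tested genes kept direction and call. A further 22 turned sign, none of them called in the reported fit, 14 gained a call and 7 lost one. At 48 hpf afp4 ran from -1.32 to -0.79 and a2ml from -0.65 to -0.56, called under every alternative. The values of mt2 ran from -1.92 to -1.24, and its call was lost only with the age score as a covariate. Scores of the genotypes did not overlap at 48 hpf, so that alternative cannot tell genotype and developmental age apart. All 60 group means moved by less than 1 SD with library totals as the scale. The cause of the moves below was not tested.

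Genes called at 24 hpf, 20 as reported, were 38 with DESeq2, 8 with libraries of that age alone and 32 with the age score. Those at 48 hpf, 362 as reported, were 634 with libraries of that age alone. For the change of the genotype difference between 24 and 48 hpf, 10 genes as reported, 23 were called with library totals, 36 with DESeq2 and 21 without the 3 shallow libraries. Of the 9 genes, 1 (afp4) was called there with DESeq2, with DESeq2 size factors in edgeR and with library totals. DESeq2 called 5 of 9 between 36 and 48 hpf in mutants, against 3.

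With the age score, signs turned for fabp10a at 36 hpf (0.014) and at 48 hpf fabp10a (0.56), fgb (0.19) and fgg (0.12). With library totals they turned in wild types for mt2 (-0.10) and serpina1 (-0.048) from 24 to 36 hpf and tfa (0.061) from 36 to 48 hpf, and for fgg in mutants at 48 against wild types at 36 hpf (0.030). The change of the genotype difference from 24 to 36 hpf turned with library totals for tfa (0.0028), fgb (0.065) and fgg (0.0048), and without the shallow libraries for a2ml (-0.0051). DESeq2 turned mt2 from 24 to 36 hpf (-0.012) and tfa from 36 to 48 hpf (0.0016) in wild types, and its size factors tfa (0.00089).

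Leaving out 1 embryo, chosen after seeing the data, gave ranges that cross 0 for fabp10a at 36 hpf (-0.45 to 0.51), mt2 in wild types from 24 to 36 hpf (-0.56 to 0.036), the genotype difference of a2ml from 24 to 36 hpf (-0.040 to 0.0054) and of rbp4 from 36 to 48 hpf (-0.025 to 0.15). The same held for fabp10a (-0.052 to 2.103) and rbp4 (-0.050 to 0.033) in mutants at 48 against wild types at 36 hpf. With the replicate number as a block, fabp10a at 48 hpf gained a call (-3.26, edgeR adjusted p = 0.0469), and no other genotype call of the 9 genes changed. The labels do not say whether same-numbered embryos were paired, so whether this block has a basis in the design is not known. Depth limits fabp10a and ttr, with at most 35 and 6 counts in a library.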
